A study of Mus musculus with 2 samples.

Results

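Heterotrimeric G proteins carry signals from cell-surface receptors to enzymes inside the cell, and their alpha subunits, the subject here, bind GTP and choose the enzyme. The set holds 9 mouse genes, Gna11, Gnaq, Gna14, Gna12, Gna13, Gnai1, Gnai2, Gnai3 and Gnas. It was chosen by a measured value, the strong difference of Gna11 between the arrays described here, and its members are all non-control probes whose array gene name is 1 of these symbols. That gave 14 of 39429 non-control probes. In all, 8 of the 9 genes were measured, meaning well above background on at least 1 array, against 15419 named genes measured over the whole array. Gna14 was not.

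The study asked how loss of G0s2, which encodes an inhibitor of the triglyceride lipase ATGL, changes expression in mouse primary hepatocytes, the parenchymal cells of the liver taken into culture. One group of cells received 50 pmol of control siRNA and the other 50 pmol of G0s2 siRNA by lipid transfection. The cells were kept in DMEM with fetal bovine serum, and expression was measured 24 hours later on 1 Agilent 1-colour array per group. Strain, sex and age of the mice and the number of wells or animals per sample are not given in the sources used here. With 1 array per group no difference has a replicate check and no test was possible, so every value compares these 2 arrays. In bulk RNA, fewer cells of a type and less RNA per cell cannot be told apart.

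In the resting state an alpha subunit holds GDP and sits with a beta and a gamma subunit, and an activated receptor makes it exchange GDP for GTP. Subunits of the Gq class, encoded by Gnaq, Gna11 and Gna14, switch on phospholipase C beta and release calcium. Gna12 and Gna13 act through exchange factors for the small GTPase RhoA, Gnas encodes the stimulator of adenylyl cyclase, and the Gnai genes encode its inhibitors. In hepatocytes glucagon signals through Gs and cyclic AMP, while vasopressin, angiotensin and alpha-1 adrenergic agonists signal through Gq and calcium, and both routes promote glucose output.

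Each probe is a 60-base oligonucleotide, and its position in the transcript decides what it measures. The first 30 bases are shown for the Gna11 probe, on which the choice of the set rests, and for probes of Gna12 and Gna13. Of the Gna12 probes 1 was not well above background with control siRNA, and the Gna13 probes gave different values. Probes that lie in the sequence encoding the guanine-binding motif shared by GTPases are shown whole, with the 12 bases of that motif in capitals. These are a Gna13 probe and the probe of Gna15, a further Gq-class gene next to Gna11.
Gna11, position 3008 of NM_010301, chr10:80991671-80991730, minus strand: caaacttcagcctatttaagagaacactca
Gna12, position 1719 of NM_010302, chr5:141235999-141236058, minus strand: ttggcctcacactaggctgtaaagagcatg
Gna12, position 3191 of ENSMUST00000000153, chr5:141234527-141234586, minus strand: atcggaagaccaggctggagtcatttacaa
Gna13, position 1041 of NM_010303, chr11:109257528-109257587, plus strand: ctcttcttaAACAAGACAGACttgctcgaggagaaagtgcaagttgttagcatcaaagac
Gna13, position 4958 of NM_010303, chr11:109261445-109261503, plus strand: tatggtacgagtttagggcttagtcagttt
Gna13, position 5799 of NM_010303, chr11:109262286-109262345, plus strand: cttagtagaggcacacagtgcagaccttat
Gna15, position 1096 of NM_010304, chr10:80970686-80970745, minus strand: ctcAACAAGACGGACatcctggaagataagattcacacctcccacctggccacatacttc
Coordinates (mm9) and transcript records were read from the scanner tables. An mm9 annotation of exons and UTRs was not used here. The motif stretches of the Gna13 and Gna15 probes share 11 of 12 bases. Outside that motif the probes have little in common: the longest run of bases that the Gna11 probe shares with any probe of another member is 7, reached with Gnaq, with Gnai3 and with the Gna13 probe at position 4958.

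Levels below are log2 processed signals minus the array's 75th percentile, which was 418 on the control siRNA array and 728 on the G0s2 siRNA array. Differences are G0s2 siRNA minus control siRNA on that log2 scale, and the error is the scanner's own error of the 2 signals, which leaves out variation between cultures and labellings. G0s2 itself differed by -2.70 ± 0.21, so the array labelled G0s2 siRNA had the lower level. Of the 8 hepatocyte markers listed, 8 were well above background on both arrays, with summed levels (on the linear scale, 1 being the 75th percentile) of 964 and 1156. Of these, Cps1, of the urea cycle, differed by 2.96 ± 0.20 and the transcription factor gene Hnf4a by 1.04 ± 0.20, and a further probe of Apob by 1.26 where the brightest gave 0.31. Apoa1 was at 0.64 ± 0.20, Alb at 0.30 ± 0.20, Trf at 0.22 ± 0.20 and Cyp2e1 at 0.23 ± 0.20 (0.37 by a further probe). Ttr went the other way, at -0.16 ± 0.20. Summed levels of the other marker lists, which come from other probes and cannot be set against the hepatocyte sum as amounts of cells, were 2.83 and 2.33 for 4 of 4 macrophage markers, 0.560 and 0.657 for 4 of 4 endothelial markers, 3.61 and 1.71 for 3 of 4 cholangiocyte markers, and 1.91 and 0.958 for 2 of 4 lymphocyte markers, control first. Among them Krt19 differed by -1.13 ± 0.20, Cd3e by -1.01 ± 0.20 and Cdh5 by 1.01 ± 0.26. The endothelial markers Lyve1 and Pecam1 were also higher, at 0.89 ± 0.33 and 0.77 ± 0.29. Stab2, which weighs most in the endothelial sum, was at -0.18 ± 0.21. The other cholangiocyte markers measured were lower, Sox9 at -0.94 ± 0.21 and Krt7 at -0.87 ± 0.23. The macrophage markers went both ways, with Adgre1 at 0.67 ± 0.35 (0.38 by a further probe) and Cd68 at 0.14 ± 0.20. Csf1r was at -0.50 ± 0.20 by its brightest probe, with -0.20 and -0.09 by further probes, and Clec4f at -0.33 ± 0.22. The stellate markers Des, Lrat, Pdgfrb and Reln, the cholangiocyte marker Epcam and the leukocyte marker Ptprc were not well above background on either array. The part of these other cell types in the values below was not tested.

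Gna11 had the largest difference among the members' symbol-named probes measured on both arrays. Its processed signal was 121 ± 12.5 with control siRNA and 2138 ± 214 with G0s2 siRNA. The levels of -1.79 and 1.55 give a difference of 3.34 ± 0.21, or 10.1-fold higher with G0s2 siRNA. Both spots were well above background and neither was flagged, and this 1 spot per array is the array's only probe for the gene. Among all genes measured, 7 had a higher difference or bound. This is the value that chose the set, and it is given as a description.

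The Gna11 spots were even in brightness. Mean and median pixel were 189 and 191 on the control siRNA array, with a pixel SD of 33.5, and 2057 and 1997 on the G0s2 siRNA array, with a pixel SD of 247. The local background was 62 and 61. Within 2 rows and 2 columns of the spot, 12 other probe spots were well above background on both arrays. Their differences ran from -1.32 to 0.80 with a median of -0.19, so the spots around Gna11 were not raised with it.

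Of the other Gq-class members only Gnaq could be compared, and it did not show the difference seen in Gna11. Gnaq, which encodes the other widely expressed Gq-class subunit, had signals of 178 ± 18.1 with control siRNA and 310 ± 31.2 with G0s2 siRNA. Relative to each array's 75th percentile its levels were both -1.23, a difference of -0.00 ± 0.21. The single Gna14 probe, with signals of 10.2 and 3.66, was not well above background on either array, so no fold is given. Gna15, a Gq-class gene of blood cells that is no member, had levels of -3.62 and -3.95 and a difference of -0.32 ± 0.27.

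**Figure D1:**
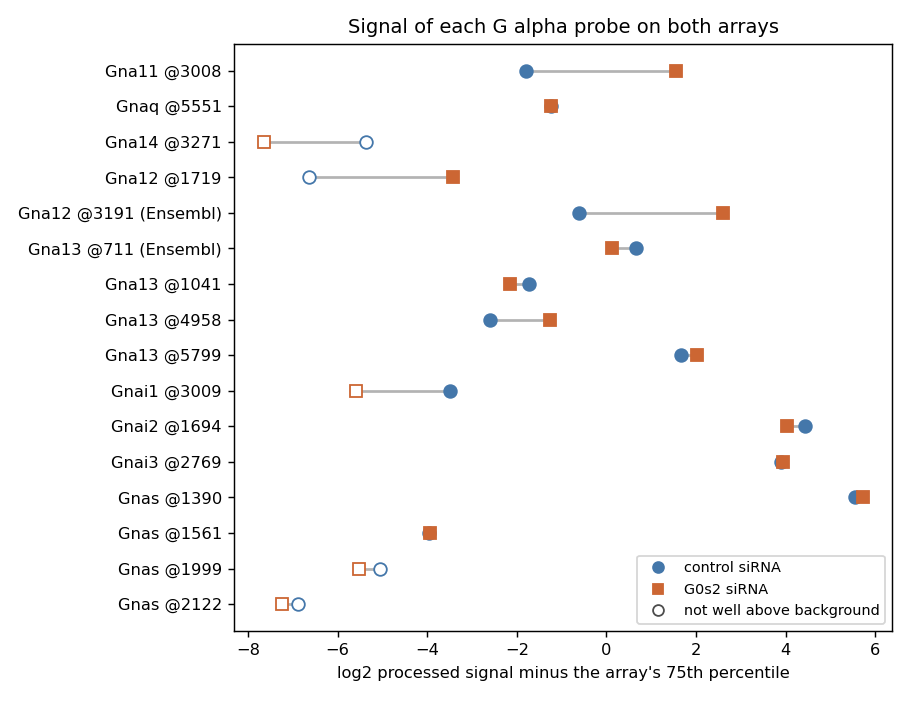
Log2 processed signal minus the array's 75th percentile (horizontal axis) for each probe of the 9 genes, labelled with its position in its transcript record. Circles are the control siRNA array, squares the G0s2 siRNA array, and open symbols mark spots not well above background. The Gna11 probe and the Ensembl-named Gna12 probe show the widest gaps between filled symbols, and the symbols of Gnaq, Gnai3 and Gnas at 1390 nearly coincide.

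Gna12, 1 of the G12/13 pair, was also higher with G0s2 siRNA, although the probe that carries its symbol gives only a bound. That probe read 4.22 ± 3.13 on the control siRNA array, not well above background, and 67.7 ± 7.65 on the G0s2 siRNA array. Set against the lowest control signal well above background, 14.3, the gene was at least 2.72-fold higher, a log2 difference of at least 1.44. A bound of this kind takes the fold from the lowest signal on the array that was well above background, not from a limit of that spot. It shrank to 0.28 under another background correction (normexp), which ends the call. A second Gna12 probe lies outside the set because the array names it by its Ensembl transcript, and it was added after its description was found to name the gene. It read 275 ± 27.7 with control siRNA and 4419 ± 442 with G0s2 siRNA, well above background on both arrays. Its difference was 3.21 ± 0.20, or 9.23-fold higher, and 3.07 under normexp, where Gna11 was at 2.79, so Gna11 and Gna12 have no settled order. Both Gna12 probes were thus higher on the G0s2 siRNA array, each on 1 spot per array.

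The probes of Gna13, the partner of Gna12, did not give 1 direction. The brightest, at position 5799, read 1315 ± 132 and 2938 ± 294, a difference of 0.36 ± 0.20. The probe at position 4958 read 69.5 ± 7.61 and 304 ± 30.7, a difference of 1.33 ± 0.21, and 0.94 under normexp. The coding probe at position 1041, which holds the guanine-binding motif, read 126 and 164, a difference of -0.42 ± 0.21. An Ensembl-named probe of the gene, upstream on the chromosome at 109241587 to 109241646 of chromosome 11, differed by -0.53 ± 0.20. Among the 3 symbol-named probes, which share a record, the one at 1041 was lower and those at 4958 and 5799 were higher with G0s2 siRNA. The Ensembl-named probe was also lower, but its position is counted in another record and cannot be placed on the same scale. With the array-wide trend of differences with probe position removed, the symbol-named probes gave 0.21 at 5799, 1.21 at 4958 and -0.37 at 1041. Gna13 is counted below by its brightest probe, within 2-fold.

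**Figure D2:**
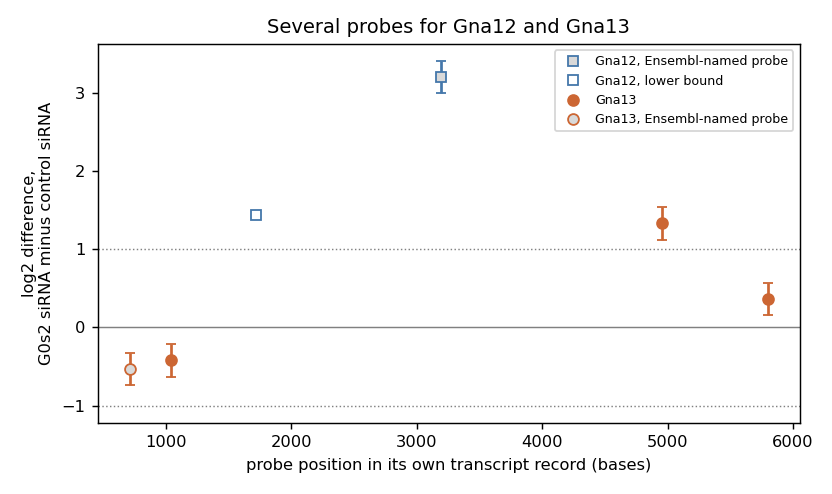
Log2 difference, G0s2 siRNA minus control siRNA (vertical axis), against the probe's position in its own transcript record in bases (horizontal axis), for the Gna12 probes (squares) and Gna13 probes (circles). Bars are the scanner's error, grey-filled symbols are probes named by an Ensembl transcript, and the open square is a lower bound. Gna12 lies above 1 at both positions. The Gna13 values lie between -0.53, for the Ensembl-named probe at position 711 of a different record, and 1.33 at 4958.

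The inhibitory members split by whether they could be measured well. Gnai2, which encodes an abundant Gi subunit, had signals of 9082 ± 908 and 11919 ± 1192, and its difference after scaling was -0.41 ± 0.20. Gnai3, a close relative, had signals of 6273 ± 627 and 11188 ± 1119 and a difference of 0.04 ± 0.20. Gnai1 was well above background on the control siRNA array only, at 37.1 ± 4.76, against 15.1 ± 4.15 on the G0s2 siRNA array. Set against the lowest G0s2 siRNA signal well above background, 18.1, its level after knockdown was 3.57-fold lower, a log2 difference of -1.84. Under normexp the difference was -1.13. The scanner error of the dim spot reaches above that lowest signal, so the fold is not a firm bound. Gnai1 is the only member that was at least 2-fold lower, and it rests on 1 spot per array close to background.

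Gnas, the stimulatory member, is a complex locus with several promoters, and its 4 probes are assigned to different transcripts. The probe at position 1390 matches records of 4 transcript variants. It was the bright one, with signals of 19613 ± 1961 and 38222 ± 3822 and a difference of 0.16 ± 0.20. The probe at position 1561, for transcript variant 4, read 26.8 ± 4.12 and 47.7 ± 6.25, a difference of 0.03 ± 0.29. The probes for transcript variant 6 and for an Ensembl transcript at the upstream end of the locus were not well above background on either array. Both measured Gnas probes thus differed by less than their scanner error.

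Counted by gene, 2 of the 8 measured members, Gna11 and Gna12, were at least 2-fold higher after knockdown, against 4.81% of the 15419 genes measured. One member, Gnai1, was at least 2-fold lower, against 5.45% of genes. The comparison that chose the set is the one counted, so nothing is read from these shares. The other 5 members lay between -0.41 and 0.36. The median over the 8 members was 0.10, and that over all genes was -0.03. Over the 14120 genes well above background on both arrays, the 5th and 95th percentiles of the difference were -1.01 and 0.97.

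**Figure D3:**
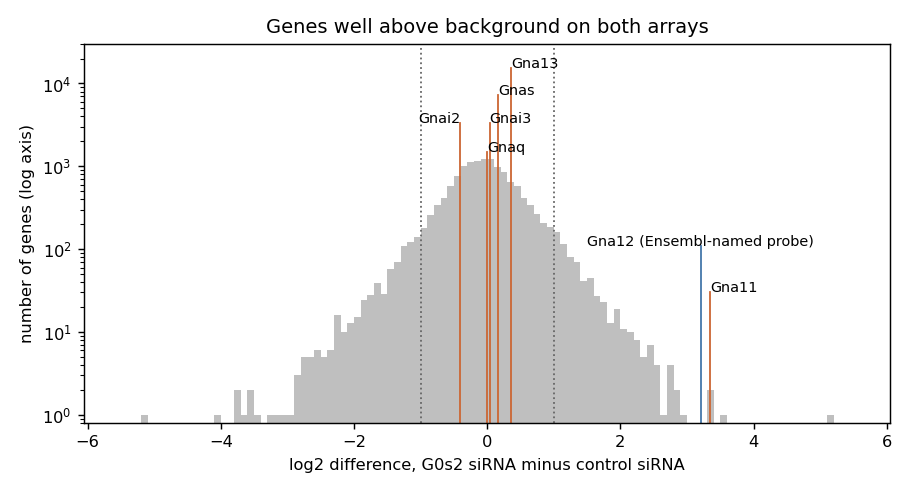
Histogram of the log2 difference, G0s2 siRNA minus control siRNA (horizontal axis), with the number of genes on a log axis, for 14120 genes well above background on both arrays. Dotted lines mark 2-fold, orange lines mark the members measured on both arrays, and the blue line is the Ensembl-named Gna12 probe. Gna11 at 3.34 and that probe at 3.21 lie in the far upper tail, while the other 5 members lie inside the dotted lines.

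These differences are relative to each array's 75th percentile. Centring on 8 spike-in control probes instead moved the median of all genes from -0.03 to 1.52, and Gna11 from 3.34 to 4.92. On that scale 7 of the 8 members were at least 2-fold higher and Gnai1 was at -0.25. Of all genes at least 2-fold apart, 46.9% were higher in the reported values and 99.7% with spike-in centring. Relative to the median of all genes, the Gna11 difference was 3.37 in the reported values and 3.40 with spike-in centring. The lower values given for Gnai2, Gnai1 and the 2 probes of Gna13 therefore hold relative to the other genes on the array, and all of these but Gnai1 turned positive with spike-in centring.

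**Figure D4:**
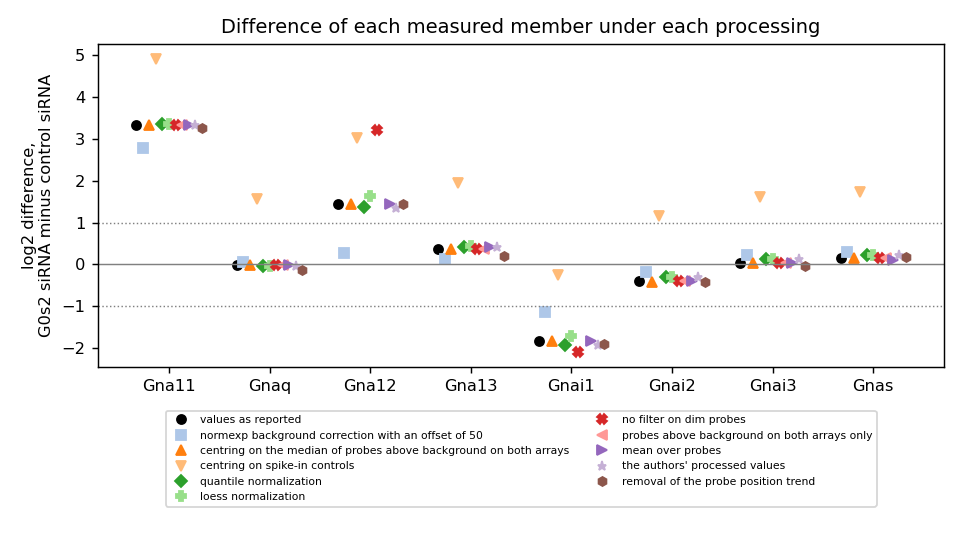
Log2 difference, G0s2 siRNA minus control siRNA (vertical axis), of the 8 measured members under the reported processing (black circles) and 10 alternatives (coloured symbols). Dotted lines mark 2-fold. Gna11 stays between 2.79 and 4.92, while Gna12 falls to 0.28 under normexp and the spike-in centring lifts every member.

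The difference at Gna11 was not shared by the genes measured around it. Of the 5 protein-coding neighbours on each side, in the gene order of a RefSeq table, 9 were measured. None was at least 2-fold higher, against 4.81% of all genes, and nothing is read from a count this small. The differences of the 9 neighbours ran from -1.20 to 0.38 with a median of -0.40. The nearest on either side were Gna15, at -0.32 ± 0.27, and Tle5, a transcriptional corepressor gene, at -0.45 ± 0.20. Tle6, of the same family, was the 1 neighbour at least 2-fold lower, against 5.45% of all genes. It was at -1.20 ± 0.20, and within 2-fold under normexp. S1pr4, a receptor for sphingosine 1-phosphate, was not well above background.

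**Figure D5:**
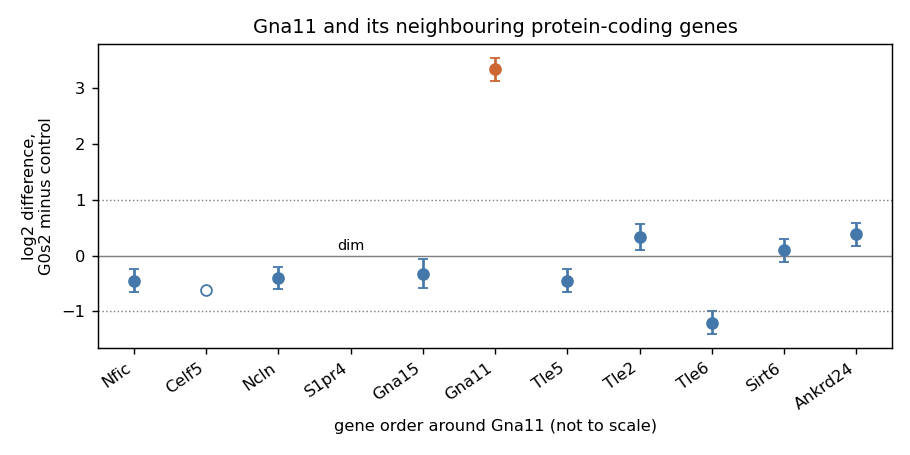
Log2 difference, G0s2 siRNA minus control siRNA (vertical axis), of Gna11 and the 5 protein-coding genes on each side in chromosome order (horizontal axis, not to scale). Bars are the scanner's error, the open circle is a gene dim on 1 array, and "dim" marks a gene not well above background on either. Gna11 at 3.34 stands apart from neighbours between -1.20 and 0.38.

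Among genes with official-style symbols measured on both arrays, those whose pair of levels lay nearest to that of Gna11 were Suclg2, of succinyl-CoA ligase, at a difference of 3.32, Nsf, an ATPase of membrane fusion, at 2.47, Chn2, a GTPase-activating protein for Rac, at 2.35, and Ttpa, the tocopherol transfer protein, at 2.30. Nearness was the Euclidean distance over the 2 arrays, from 0.417 for Suclg2 to 0.819 for Ttpa, and 2 arrays allow many such matches.

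The partners of the alpha subunits, like all the lists below, were counted by the brightest probe of each gene. For the genes named, other probes well above background on both arrays are given where they differ from the brightest. Each list count stands beside the shares over all genes, 4.81% at least 2-fold higher and 5.45% lower, and nothing is read from counts this small. Of 5 listed beta subunit genes 3 were measured and none passed 2-fold, with a median of 0.12. Gnb1 and Gnb2, the main beta subunit genes measured, differed by 0.12 ± 0.20 and -0.13 ± 0.20, although a further Gnb1 probe gave 0.86. Of 12 gamma subunit genes 8 were measured and none passed 2-fold, with a median of -0.23 and the lowest value in Gng11 at -0.96 ± 0.20. A further Gng12 probe, however, was past 2-fold at 1.20, while the brightest Gng12 probe gave -0.03 ± 0.20. Of 7 other alpha subunit genes 5 were measured, none passed 2-fold and the median was -0.32. Genes for chaperones of alpha subunits and for GoLoco proteins, which hold alpha subunits in the GDP form, were measured for 7 of 7, with none past 2-fold and a median of 0.12. Among them the chaperone Ric8a, which folds Gq, Gi and G12/13 subunits, differed by 0.12 ± 0.20, and Gpsm2 by 0.91 ± 0.21.

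RGS proteins end the signal by speeding up GTP hydrolysis. Of 21 listed genes 13 were measured, 1 was at least 2-fold higher, none was lower and the median was 0.07. The higher gene was Rgs11 at 1.07 ± 0.22, which was within 2-fold under normexp. Rgs16 and Rgs2, which act on Gq-class subunits, differed by 0.92 ± 0.22 and 0.57 ± 0.21.

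On the Gq route, 7 of 17 listed receptor genes were measured and none passed 2-fold, with a median of -0.14. The alpha-1 adrenergic receptor gene Adra1b differed by -0.14 ± 0.20 (0.43 by a further probe), the angiotensin receptor gene Agtr1a by 0.17 ± 0.20 and the vasopressin receptor gene Avpr1a by -0.54 ± 0.26. Of 16 Gq effector genes 13 were measured and none passed 2-fold, with a median of 0.02. The phospholipase gene Plcb3 differed by 0.13 ± 0.20 and Plcb1 by 0.59 ± 0.22, with 0.04 by a further Plcb1 probe. Itpr2, a calcium release channel gene of hepatocytes, differed by 0.02 ± 0.20, and Grk2, a receptor kinase that also binds Gq, by -0.82 ± 0.20.

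On the G12/13 route, 7 of 10 listed receptor genes were measured, 1 was at least 2-fold lower, none was higher and the median was -0.02. The lower gene was the adhesion receptor Adgrg1, at -1.75 ± 0.26, and within 2-fold under normexp. All 10 listed effector genes were measured and none passed 2-fold, with a median of -0.15. The exchange factor genes Arhgef1, Arhgef12 and Arhgef11, whose products bind G12/13 subunits, differed by -0.81 ± 0.20, 0.56 ± 0.20 and -0.03 ± 0.21, and a further Arhgef1 probe gave -0.18. The 2 Rhoa probes went opposite ways, at -0.43 ± 0.20 for the brighter and 0.33 for the other. Of 11 target genes of the SRF and YAP factors 11 were measured and none passed 2-fold, with a median of 0.03 and Ccn1 at -0.58 ± 0.20. Probes disagreed for Vcl, at 0.70 ± 0.20 and -0.21. They also disagreed for Actg1, where the brightest gave 0.43 ± 0.20 and 2 others were past 2-fold at 1.41 and 1.20. Its remaining probes gave 0.34 and -0.19.

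On the Gs and Gi routes, 12 of 18 Gs-coupled receptor genes were measured, 1 was at least 2-fold lower, none was higher and the median was -0.00. The glucagon receptor gene Gcgr differed by 0.68 ± 0.20. The lower gene was the beta adrenergic receptor Adrb3 at -1.03 ± 0.21. Its other probe was dim with control siRNA and passed background only after knockdown, so the 2 probes do not share a direction. Under normexp, or as a mean over probes, no gene of the list was past 2-fold. Of 19 Gi-coupled receptor genes 10 were measured, 1 was at least 2-fold lower, none was higher and the median was -0.08. That gene was Adra2b, at -1.08 ± 0.30, and it was within 2-fold under normexp.

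Of 27 genes of the cyclic AMP pathway 16 were measured, with 1 at least 2-fold higher, 1 lower and a median of 0.25. Prkar2a, a regulatory subunit of protein kinase A, was higher at 1.54 ± 0.20. Pde4a, a cyclic AMP phosphodiesterase, was lower at -1.86 ± 0.21, and its other probe gave -1.53. Of 13 target genes of cyclic AMP and CREB 12 were measured, with a median of 0.28. Of these, 2 were at least 2-fold higher, against 4.81% of all genes, and 1 was lower, against 5.45%. The higher genes were the nuclear receptor Nr4a2 at 1.79 ± 0.28 and Igfbp1, an insulin-like growth factor binding protein, at 1.67 ± 0.20. Sik1, a salt-inducible kinase, was lower at -1.36 ± 0.21. A further Nr4a2 probe passed background only after knockdown. Under normexp 1 gene of the list, not 2, was at least 2-fold higher. Pck1 and G6pc, of gluconeogenesis, differed by 0.03 ± 0.21 and 0.42 ± 0.21.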

How the data were processed

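Intensity values in the deposited scanner tables were read with Agilent Feature Extraction 10.7.1.1, per the file headers, and the processed signal is linear and background-subtracted. The authors' series table holds linear intensity values with 1 distribution for both columns, by a method not given in the sources used here, and served only as an alternative. Groups came from the sample labels. The title of the knockdown sample reads 'Go_ siRNA', and its group was taken from the label of the transfected siRNA, which reads G0s2 siRNA. Control spots and flagged spots were left out (5 probes), spots of a probe were averaged, and log2 signals were centred on the 75th percentile of 39424 probes. Of these, 26408 were named by accession through a RefSeq table of GRCm38.p6, 3854 by symbol, 734 by synonym and 8428 not at all. Each gene took the value of the brightest of its probes that passed the background flag on either array, and a dim array entered as a bound. The call was a 2-fold difference, with no test, and the number of arrays limits the precision.

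Members, the 14 pathway lists and the marker lists were chosen with earlier results of these data known. The value of 1 lymphocyte marker is not reported here. Named genes were the members, G0s2, the markers, 5 neighbours on each side of Gna11, the 4 genes with official-style symbols nearest to it in level, and in each list up to 4 genes with the largest differences plus any needed to say what the list holds. The gene summary was tested on simulated data. Alternatives were other background correction, centring, normalization, dim-probe filters, probe averaging, position-trend removal, size rules and Ensembl-named probes. Python 3.11.15 with numpy 2.4.6, pandas 2.3.3 and statsmodels 0.14.6, and R 4.3.3 with limma 3.58.1, were used.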

Additional observations from a re-analysis of the deposited data

How the results depend on the processing

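The Gna11 difference, 3.34 as reported, was 2.79 under normexp and 4.92 with spike-in centring, and moved by less than its scanner error under the other 8 alternatives. The 2 members at least 2-fold higher became 1 under normexp, with probes above background on both arrays only, at a 3-fold rule and at more than 2 times the scanner error, and 7 with spike-in centring. The 1 lower member became 0 with spike-in centring and with probes above background on both arrays only, and 2 without a filter on dim probes. The members' median, 0.10, was 1.68 with spike-in centring. Counts over all genes, 742 higher and 840 lower, were 378 and 517 under normexp, 13104 and 38 with spike-in centring, 1523 and 1455 without a filter, 1918 and 2245 at 1.5-fold, 176 and 236 at 3-fold, and 2489 and 3043 at more than 2 times the error. With spike-in centring 6 lower genes turned positive, Tle6 to 0.38, Adra2b to 0.49, Adrb3 to 0.54, Sik1 to 0.21, Krt19 to 0.45 and Cd3e to 0.57. Without the filter the median of all genes was -0.15. The spike-in amounts are not given in the sources used here, and the cause of that shift was not tested. With Ensembl-named probes, an alternative chosen after seeing the data, Gna12 was 3.21 and the counts of members were 2 and 1. Signal near background limits Gna12 by its symbol-named probe, Gnai1 and Gna14. No paired analysis was possible because each group has 1 array.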
